A study of Homo sapiens with 9 samples.

Results

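Genes for enzymes that methylate RNA, and for the erasers and partners of these enzymes, were followed in the human fibrosarcoma line HT1080 as the enzyme methylthioadenosine phosphorylase (MTAP) was present, present but inhibited, or absent. The genes were chosen by name: 37 genes of SAM-dependent mRNA, tRNA and rRNA methylation were listed, and every probe set that the platform annotation assigns to one of them alone, and that had values, was kept. This gave 33 genes with 55 probe sets, of 9453 genes with 15485 probe sets in all. TRMT10A had no probe set with values, METTL16 had only a probe set shared with another gene, and RNMT and NSUN6 were not analysed here.

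Of the 9 expression arrays, 3 were from MTAP-positive HT1080 cells kept in 10 µM MT-DADMe-ImmA, an inhibitor of MTAP, for the last 48 hours before harvest, 3 from MTAP-positive cells without treatment and 3 from MTAP-negative cells without treatment. All cells were grown in DMEM to near confluency, and within a group the 3 arrays are described as biological replicates. The labels do not say how MTAP expression was obtained or whether each kind of cell is a single clone, and MTAP-negative cells with inhibitor were not analysed here. Of the mesenchymal markers VIM, CD44, LGALS1, S100A6, THY1 and COL5A1, all had values except THY1 and COL5A1, whereas 0 of 5 blood and 0 of 4 endothelial markers had values. KRT8 was the only 1 of 5 epithelial markers with values, and SNAP25 and TUBB3 were the 2 of 4 neural markers with values. The log2 level of SNAP25 was 7.64, 8.02 and 8.01 with inhibitor, 6.84, 6.69 and 7.63 in MTAP-positive cells and 6.12, 6.32 and 6.14 in MTAP-negative cells, with no overlap between the groups. TUBB3 was lower with inhibitor than in MTAP-positive cells (a log2 difference of -0.49 ± 0.13, SE, with a Benjamini-Hochberg adjusted p = 0.0325 from limma over all genes) and MTAP-negative cells (-0.52 ± 0.13, adjusted p = 0.00994). The mesenchymal marker CD44 was lower with inhibitor than in MTAP-positive cells (-0.35 ± 0.10, adjusted p = 0.0419). The part of these genes in the results was not tested.

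RNA methyltransferases take a methyl group from S-adenosylmethionine (SAM) and place it on a base or a ribose. METTL3 with METTL14 and WTAP writes N6-methyladenosine (m6A) on mRNA, FTO and ALKBH5 remove it, cap enzymes finish the 5′ end of mRNA and small nuclear RNA, and a large set of enzymes modifies tRNA and ribosomal RNA in the nucleus, the cytoplasm and the mitochondria. Methylthioadenosine, which arises in polyamine synthesis and can inhibit methyltransferases when it accumulates, is the substrate of MTAP, and the salvage pathway that follows returns methionine, the precursor of SAM. These arrays measured mRNA levels of the enzymes, not methylation of RNA.

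Promoters of 4 members that passed the test in at least 1 of the comparisons below are shown because each held more than 1 copy of the letters CCGGAAG, a core recognised by ETS family transcription factors, in a stretch that no other RefSeq gene overlaps. MRM2 also held 2 copies and is not shown, because NUDT1 overlaps its stretch. The stretches shown are the 100 bases before the annotated start (RefSeq, build GRCh38.p14), 5′ to 3′ on the strand of the gene, and capitals mark CCGGAAG or its reverse complement. They lie at chr20:5950534-5950633 on the minus strand (TRMT6), chr3:101561768-101561867 on the plus strand (TRMT10C), chr7:73308827-73308926 on the minus strand (NSUN5) and chr12:6970813-6970912 on the plus strand (EMG1).
TRMT6: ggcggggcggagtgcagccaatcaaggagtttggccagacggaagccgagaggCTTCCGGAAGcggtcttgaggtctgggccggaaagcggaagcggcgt
TRMT10C: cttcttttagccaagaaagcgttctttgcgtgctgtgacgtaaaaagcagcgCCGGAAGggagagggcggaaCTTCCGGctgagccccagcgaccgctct
NSUN5: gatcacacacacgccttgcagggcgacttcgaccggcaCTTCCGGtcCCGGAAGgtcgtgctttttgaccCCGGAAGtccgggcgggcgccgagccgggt
EMG1: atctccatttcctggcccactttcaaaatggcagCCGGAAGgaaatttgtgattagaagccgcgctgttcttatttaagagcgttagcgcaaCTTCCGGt
In TRMT6 the 2 copies overlap on opposite strands. TRMT10C and EMG1 also held 2 copies, and NSUN5 held 3. Over the 250 bases before the start, CCGGAAG on either strand was found in 5 of the 9 genes that were below the test threshold in at least 1 comparison and had a promoter in the table (the above and MRM2, with TRDMT1 among the others), in 7 of the 19 other members, and in 20.8% of the 7914 genes of the array that had one. A gene was counted if any of its promoter windows held the letters. Counted window by window, they were in 8.52% of all 35116 promoter windows, which is not a share of genes. Of the other letters searched on both strands, the GC-box GGGCGG was in 6 of the 9 genes (77.0% of array genes), CCAAT in 4 (42.3%) and the cyclic AMP element TGACGTCA in 1 (3.83%). The E-box CACGTG (11.8% of array genes) and the motifs of NRF1 (13.5%) and YY1 (0.569%) were in 0 of the 9. Of the 19 other members, 14 held the GC-box, 9 CCAAT and 6 the NRF1 motif. The cyclic AMP element and the E-box were each in 1 of these 19, and the YY1 motif in 0. The motifs were chosen with results of these data known, and METTL1 and NSUN2 are among the changed members not included. Among the 9 genes, TRDMT1 had to differ by the filter described below, and of the letters searched it held only CCAAT. A match describes letters in this window and does not show that a factor binds there.

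Levels are log2 values after RMA, the authors' normalisation, and each gene is given by its probe set of highest mean. MTAP mRNA followed the labels: it read 11.21, 11.30 and 11.10 with inhibitor, 11.63, 11.74 and 11.37 in MTAP-positive cells, and 4.41, 4.25 and 5.02 in MTAP-negative cells. Probe sets had been kept in the table where at least 3 arrays reached a log2 level of 6.64. Of the 33 members, 32 lay at or above it on all 9 arrays. The exception was TRDMT1, which reached it only on the 3 MTAP-negative arrays and so had to differ. TRDMT1 is given by its levels and left out of the counts of changed members, which are over the other 32. All genes, the background of these counts, include genes that entered in the same way. RNA quality was uneven: the ACTB control probe sets, read as 5′ level minus 3′ level, gave -1.64 ± 0.66 with inhibitor and -1.43 ± 0.45 in MTAP-positive cells, against -2.50 ± 0.90 for the MTAP-negative arrays (mean ± SD of 3, log2). The lowest was -3.52, on MTAP-negative replicate 3.

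MTAP-positive cells were first set against MTAP-negative cells, to ask which RNA methylation genes go with the presence of the enzyme. METTL1, the catalytic subunit of the tRNA N7-methylguanosine enzyme, was 1.51-fold lower in MTAP-positive cells, the rRNA cytosine methyltransferase NSUN5 was 1.36-fold lower and the mitochondrial enzymes TRMT10C and MRM3 were 1.38-fold and 1.36-fold lower. Of 32 members, 4 fell and 0 rose (limma, Benjamini-Hochberg adjusted p below 0.05 over 9453 genes), which is 12.5% of members against 18.5% of all genes. For all genes, 11.7% rose and 6.85% fell, a balance that turned to 829 higher and 992 lower genes with centred arrays and to 812 and 931 after renewed quantile normalisation. At an unadjusted p below 0.05, 6 members were lower and 0 higher, against 1307 lower and 1914 higher of all 9452 genes. The median difference was -0.11 over the members and 0.02 over all genes (log2). The groups did not overlap for 9 members, or 28.1%, against 34.8% of all genes. With the ACTB 5′ minus 3′ difference as a covariate, METTL1 was the only 1 of the 4 that passed, and over the whole array 662 genes were called, against 1750 without it. The differences of the others were then -0.39 (NSUN5), -0.43 (TRMT10C) and -0.46 (MRM3), against -0.44, -0.46 and -0.44 without the covariate. METTL1 and NSUN5 were the members of the 32 that passed when replicate 1 or replicate 2 of the MTAP-negative arrays, or MTAP-positive replicate 3, was left out.

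MTAP-positive cells with inhibitor were then set against untreated MTAP-positive cells, to ask what 48 hours of inhibition do. METTL1 was the member that changed: it was 1.36-fold lower with inhibitor than in MTAP-positive cells. Of 32 members 1 fell and 0 rose, or 3.12%, against 13.4% of all genes, of which 5.95% rose and 7.49% fell. At an unadjusted p below 0.05, 4 members were lower and 4 higher, against 1487 lower and 1243 higher of all 9452 genes. The median difference was -0.07 over the members and -0.02 over all genes (log2), and 9 members (28.1%) did not overlap between groups, against 34.8% of all genes. Same-numbered arrays deviated together in this comparison, and with the replicate number as a block 5 members passed: METTL1, TRMT5 (adjusted p = 0.0311), WTAP (0.0371) and TRMT61B (0.0382) were lower and FBL (0.0460) was higher. With the block 20.3% of all genes passed. The METTL1 difference stayed at -0.37 or below with any 1 array left out, but 0 members passed without MTAP-positive replicate 1 or without replicate 1, 2 or 3 of the inhibitor group, and TRMT11 took its place without MTAP-positive replicate 3.

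The last comparison set MTAP-positive cells with inhibitor against MTAP-negative cells, a pair in which MTAP was inhibited on one side and absent on the other. METTL1 was 2.05-fold lower with inhibitor than in MTAP-negative cells, TRMT10C was 1.66-fold lower and WTAP, the regulatory subunit of the m6A writer, was 1.59-fold lower. TRMT5, TRMT6, EMG1, NSUN2, MRM2 and MRM3 were lower as well. Of 32 members 9 fell and 0 rose, or 28.1%, against 35% of all genes, of which 18.8% rose and 16.2% fell. At an unadjusted p below 0.05, 12 members were lower and 1 higher, against 2070 lower and 2238 higher of all 9452 genes. The median difference was -0.17 over the members and 0 over all genes (log2). The groups did not overlap for 17 members, or 53.1%, against 52.7% of all genes. With the ACTB covariate the exceptions among the 9 were NSUN2 (-0.39) and MRM2 (-0.48), which no longer passed.

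**Figure D1:**
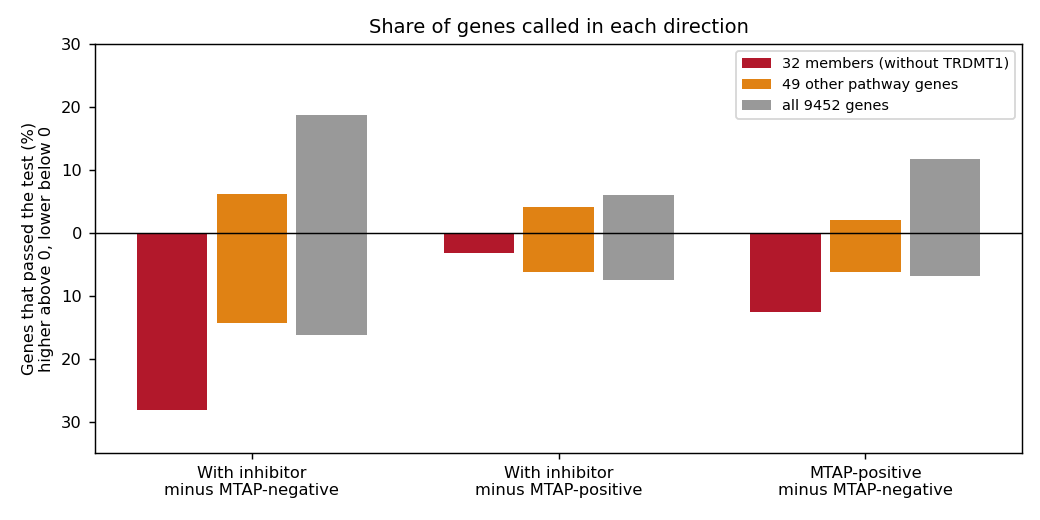
Percent of genes that passed the test (vertical axis; higher above 0, lower below 0) in each comparison for 32 members (without TRDMT1), 49 other genes of the pathway and all 9452 genes. The members have bars only below 0, with 28.1%, 3.12% and 12.5% lower from left to right, while all genes have bars on both sides.

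The 3 comparisons share arrays, so their values are not independent of each other. The group means ran in the order inhibitor lowest, MTAP-positive between and MTAP-negative highest for 16 of 33 members (48.5%) and for 23.3% of all genes. The opposite order was found for 5 members (15.2%), BUD23, FTO, METTL14, METTL5 and TRMT2A, and for 23.7% of all genes. Orders were counted by the brightest probe sets on the deposited scaling only, however small the steps. Those from MTAP-negative to MTAP-positive cells and on to inhibitor were -0.05 and -0.01 for METTL3, and 0.01 and 0.09 for METTL5.

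**Figure D2:**
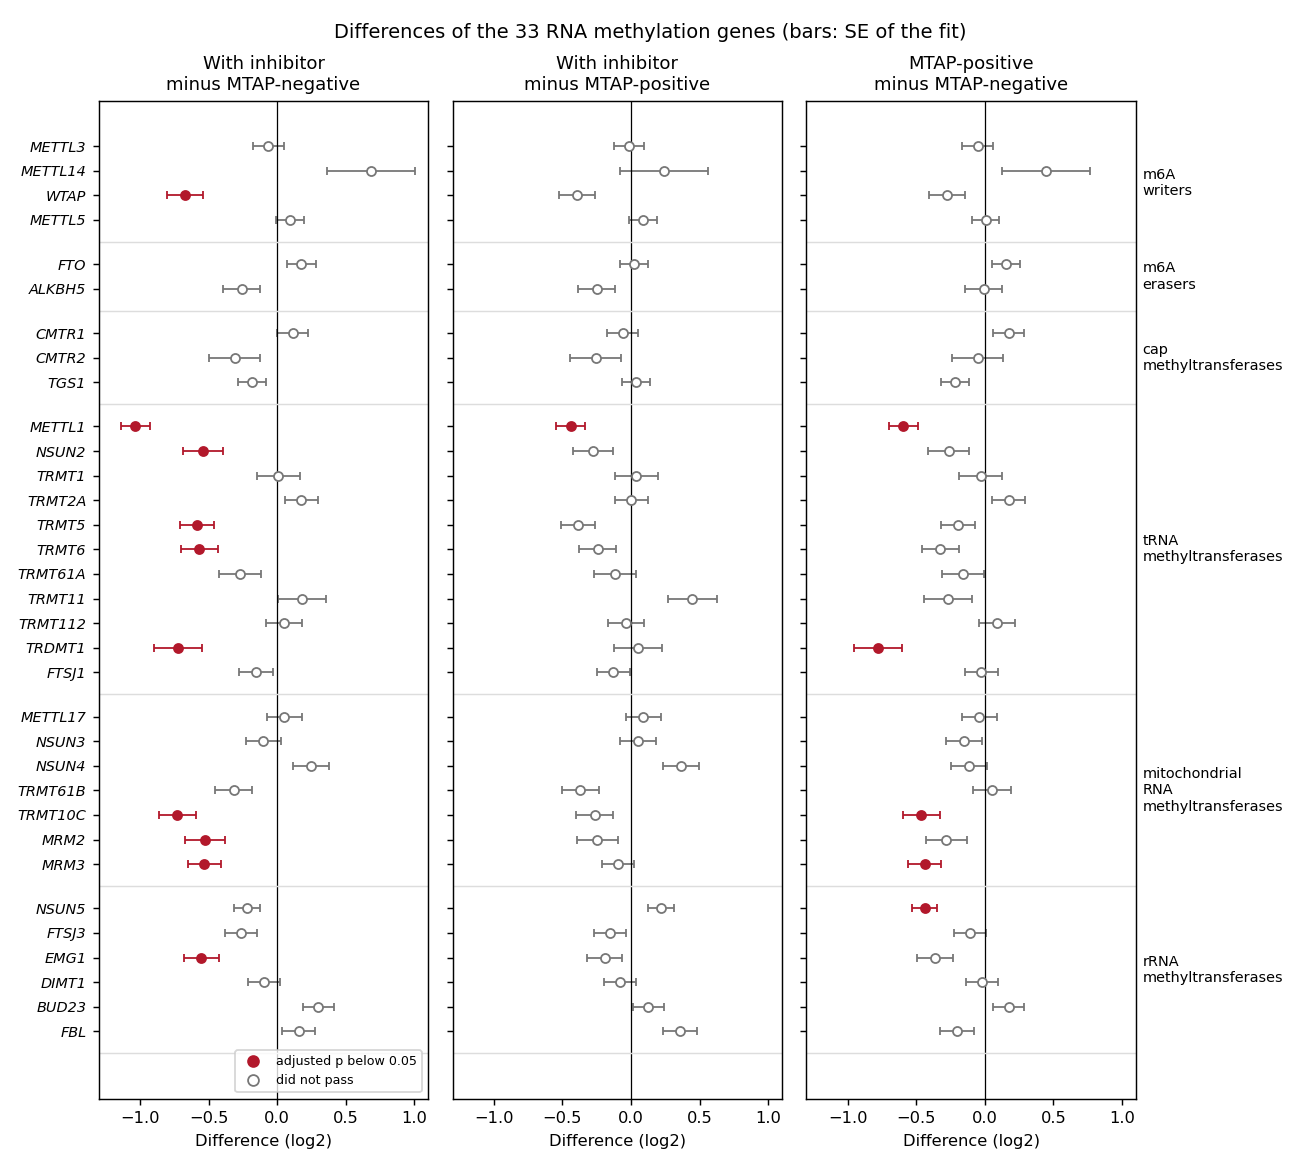
Difference in log2 level (horizontal axis) with the SE of the fit for each of the 33 members, by role, in the 3 comparisons; filled points passed the test at adjusted p below 0.05. All filled points lie left of 0, METTL1 is filled in all 3 panels, and TRDMT1, which had to differ, is filled in 2.

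Among 10 tRNA methyltransferase genes and partners with values other than TRDMT1, 1 was lower in MTAP-positive than in MTAP-negative cells (10% of them, against 18.5% of all genes called) and 1 with inhibitor than in MTAP-positive cells (10% against 13.4%). With inhibitor against MTAP-negative cells 4 were lower, or 40%, against 35% of all genes called and 16.2% lower. METTL1 read 7.08, 7.06 and 6.97 with inhibitor, 7.61, 7.31 and 7.50 in MTAP-positive cells, and 8.02, 8.12 and 8.07 in MTAP-negative cells. The 3 groups lay apart from each other on every array. METTL1 differed by -0.59 ± 0.10 in MTAP-positive against MTAP-negative cells (log2 ± SE, adjusted p = 0.00365), by -0.44 ± 0.10 between inhibitor and MTAP-positive cells (adjusted p = 0.0213) and by -1.03 ± 0.10 between inhibitor and MTAP-negative cells (adjusted p = 7.35e-05). The smallest of these steps stayed between -0.37 and -0.46 when any 1 of 5 arrays was left out, but did not pass: its adjusted p was 0.0707 and 0.0506 without MTAP-positive replicates 1 and 3, and 0.0542, 0.0611 and 0.0974 without inhibitor replicates 1, 2 and 3. Its probe set, 204027_s_at, was the only 1 for METTL1, and the suffix _s_at marks probes that can match more than 1 transcript.

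TRMT5 methylates the guanosine beside the anticodon of tRNA. It read 11.51, 11.49 and 11.12 with inhibitor, 11.91, 11.71 and 11.66 in MTAP-positive cells, and 11.99, 11.95 and 11.93 in MTAP-negative cells. Every inhibitor array lay below every array of the other groups. The difference was -0.58 ± 0.13 against MTAP-negative cells (adjusted p = 0.00499) and -0.39 ± 0.13 against MTAP-positive cells (adjusted p = 0.0670). The call against MTAP-negative cells was lost with the other TRMT5 probe set, the only one specific by name (-0.18, adjusted p = 0.232). TRMT6, the non-catalytic subunit of the tRNA N1-methyladenosine enzyme, read 8.90, 9.03 and 9.01 with inhibitor, 8.97, 9.36 and 9.35 in MTAP-positive cells and 9.47, 9.76 and 9.42 in MTAP-negative cells. Only inhibitor and MTAP-positive arrays overlapped. TRMT6 differed by -0.57 ± 0.14 between inhibitor and MTAP-negative cells (adjusted p = 0.00878), and by -0.32 ± 0.14 in MTAP-positive against MTAP-negative cells, which did not pass (adjusted p = 0.120). That comparison passed by the mean of the TRMT6 probe sets (-0.45, adjusted p = 0.0133).

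NSUN2 places 5-methylcytosine on many tRNAs. It read 10.54, 10.30 and 10.42 with inhibitor, 10.84, 10.61 and 10.63 in MTAP-positive cells, and 10.98, 10.66 and 11.24 in MTAP-negative cells. The inhibitor arrays lay lowest, and the MTAP-positive and MTAP-negative arrays overlapped. NSUN2 differed by -0.54 ± 0.15 between inhibitor and MTAP-negative cells (adjusted p = 0.0166). This call was lost with the ACTB covariate (-0.39, adjusted p = 0.0973) and without MTAP-negative replicate 3 (0.0577), inhibitor replicate 2 (0.0617) or inhibitor replicate 3 (0.0504). TRDMT1, which methylates a cytosine of aspartate tRNA, read 5.84, 6.29 and 6.34 with inhibitor, 5.77, 6.23 and 6.31 in MTAP-positive cells and 6.80, 7.05 and 6.79 in MTAP-negative cells. Both MTAP-positive groups lay below the level of 6.64 on all arrays. Counted from that level, TRDMT1 was at least 1.18-fold lower in either MTAP-positive group than in MTAP-negative cells. No test is given, since the gene entered the table through its MTAP-negative arrays.

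The remaining tRNA genes with values, TRMT1, TRMT2A, TRMT61A, TRMT11, TRMT112 and FTSJ1, passed in none of the comparisons. TRMT11, which methylates a guanosine of tRNA together with TRMT112, had the largest difference of these with inhibitor against MTAP-positive cells, at 0.45 ± 0.18 (adjusted p = 0.120). It passed without MTAP-positive replicate 3 (0.61, adjusted p = 0.0429). TRMT11 was also the one with the largest difference between MTAP-positive and MTAP-negative cells, at -0.27 ± 0.18 (adjusted p = 0.308). TRMT61A, the catalytic partner of TRMT6, differed by -0.27 ± 0.15 between inhibitor and MTAP-negative cells (adjusted p = 0.192).

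**Figure D3:**
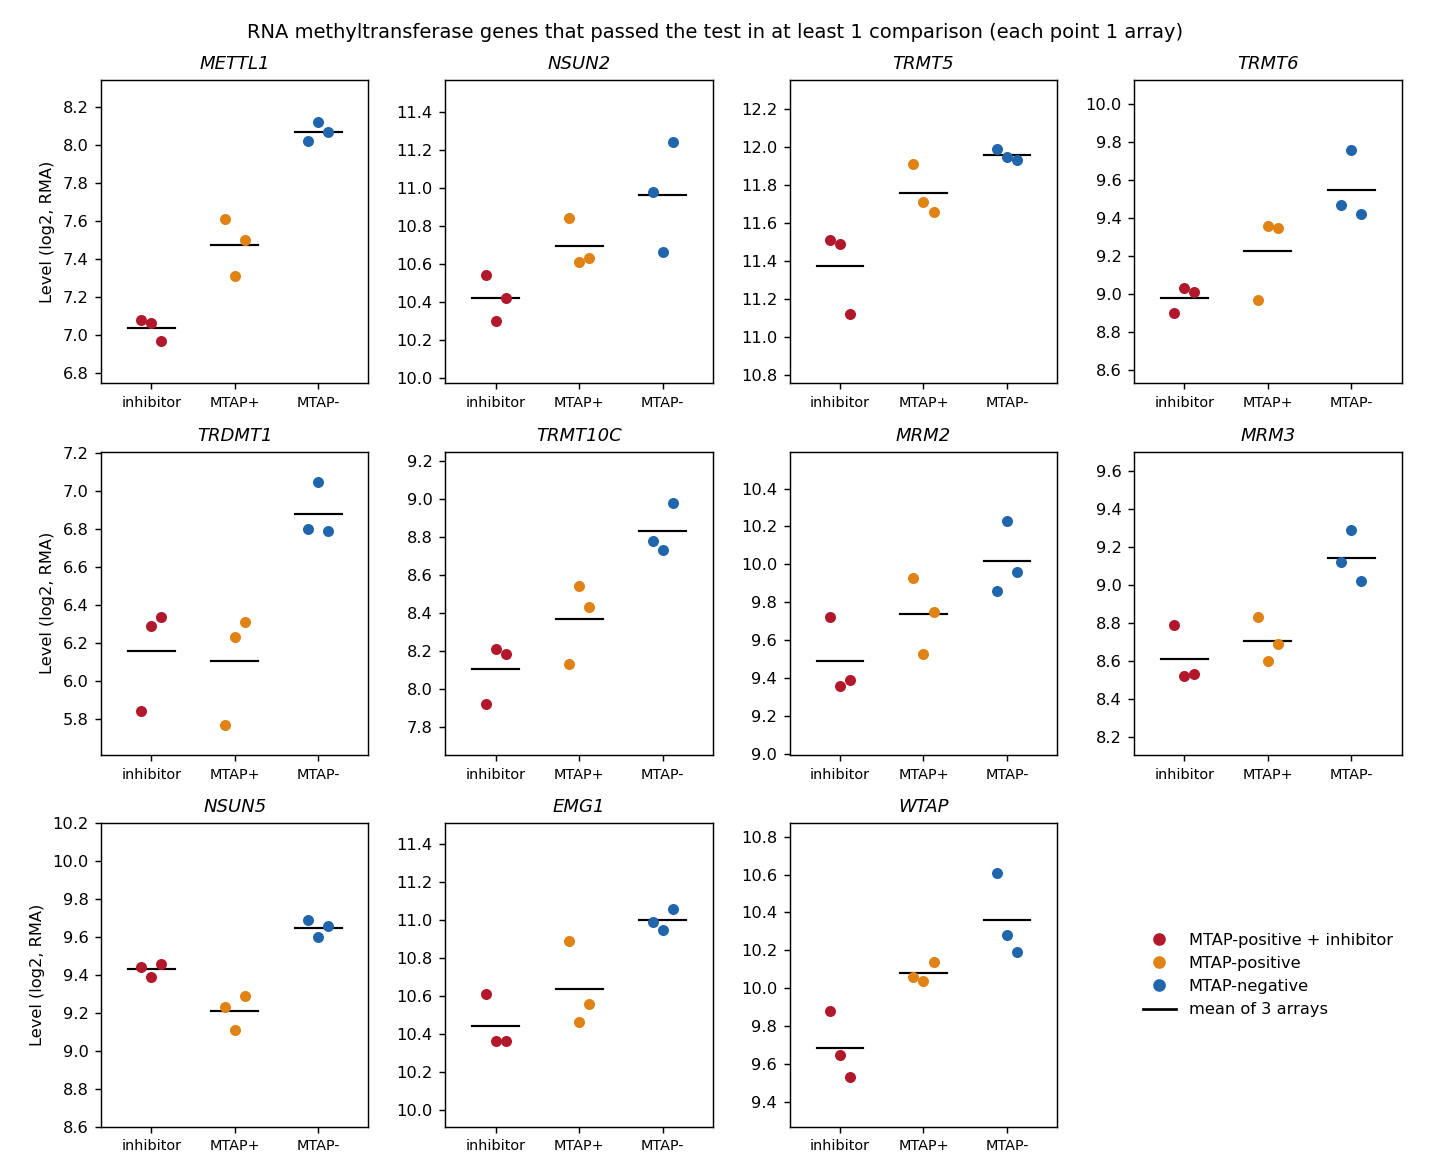
Log2 level (vertical axis, a range of 1.6 in every panel) of the 11 genes with adjusted p below 0.05 in 1 comparison or more. TRDMT1, which had to differ, is among them. Points are arrays and lines are means of 3 arrays. The 3 groups of METTL1 lie apart from each other, whereas NSUN5 is lowest in MTAP-positive cells, at 9.21 on average.

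Of 7 genes for mitochondrial RNA methyltransferases, 2 fell in MTAP-positive against MTAP-negative cells, 0 changed with inhibitor against MTAP-positive cells and 3 fell with inhibitor against MTAP-negative cells. These are 28.6%, 0% and 42.9% of the 7, against 18.5%, 13.4% and 35% of all genes called. TRMT10C, the methyltransferase subunit of mitochondrial RNase P, read 7.92, 8.21 and 8.18 with inhibitor, 8.13, 8.54 and 8.43 in MTAP-positive cells and 8.78, 8.73 and 8.98 in MTAP-negative cells. All MTAP-negative arrays lay above all others. It differed by -0.73 ± 0.13 between inhibitor and MTAP-negative cells (adjusted p = 0.00225) and by -0.46 ± 0.13 in MTAP-positive against MTAP-negative cells (adjusted p = 0.0377). The call between MTAP-positive and MTAP-negative cells was lost with the ACTB covariate (-0.43, adjusted p = 0.183), with only these groups fitted (0.0709), without MTAP-negative replicate 1 (0.0675), 2 (0.0589) or 3 (0.121), and without MTAP-positive replicate 1 (0.110) or 3 (0.0749). MRM3, a ribose methyltransferase of the large mitochondrial rRNA, read 8.79, 8.52 and 8.53 with inhibitor, 8.83, 8.60 and 8.69 in MTAP-positive cells, and 9.12, 9.29 and 9.02 in MTAP-negative cells. The MTAP-positive groups overlapped each other and lay below all MTAP-negative arrays. MRM3 differed by -0.53 ± 0.12 between inhibitor and MTAP-negative cells (adjusted p = 0.00616) and by -0.44 ± 0.12 in MTAP-positive against MTAP-negative cells (adjusted p = 0.0299). The second call for MRM3 was lost with the ACTB covariate (-0.46, adjusted p = 0.127), with only these groups fitted (0.0605), without MTAP-negative replicate 1 (0.0606) or 2 (0.0905), and without MTAP-positive replicate 2 (0.0591) or 3 (0.0805).

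MRM2, which methylates a neighbouring ribose of the same rRNA, read 9.72, 9.36 and 9.39 with inhibitor, 9.93, 9.53 and 9.75 in MTAP-positive cells, and 9.86, 10.23 and 9.96 in MTAP-negative cells. Inhibitor and MTAP-negative arrays did not overlap, and MTAP-positive arrays overlapped both. MRM2 differed by -0.53 ± 0.15 between inhibitor and MTAP-negative cells (adjusted p = 0.0190), a call lost with the ACTB covariate (-0.48, adjusted p = 0.0797) and without MTAP-negative replicate 2 (0.0706), inhibitor replicate 2 (0.0705) or inhibitor replicate 3 (0.0725). The other MRM2 probe set had -0.18 ± 0.13 there, with overlapping groups (adjusted p = 0.308). TRMT61B, which makes N1-methyladenosine in mitochondrial RNA, had 8.0, 8.09 and 8.06 with inhibitor against 8.33, 8.61 and 8.32 in MTAP-positive cells. These arrays did not overlap, and the difference of -0.37 ± 0.14 had an adjusted p of 0.0998, or 0.0382 with the replicate block. METTL17, NSUN3 and NSUN4 passed in no comparison by their brightest probe sets. NSUN3, which methylates the wobble cytosine of mitochondrial methionine tRNA, differed by -0.15 ± 0.13 in MTAP-positive against MTAP-negative cells (adjusted p = 0.446).

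Of 6 genes for rRNA methyltransferases, 1 fell in MTAP-positive against MTAP-negative cells, 0 changed with inhibitor against MTAP-positive cells, and 1 fell with inhibitor against MTAP-negative cells. These are 16.7%, 0% and 16.7% of the 6, against 18.5%, 13.4% and 35% of all genes called. NSUN5, which methylates a cytosine of the large cytoplasmic rRNA, read 9.44, 9.39 and 9.46 with inhibitor, 9.23, 9.11 and 9.29 in MTAP-positive cells and 9.69, 9.60 and 9.66 in MTAP-negative cells. The 3 groups did not overlap, with MTAP-positive cells lowest and inhibitor-treated cells between. NSUN5 differed by -0.44 ± 0.09 in MTAP-positive against MTAP-negative cells (adjusted p = 0.00977), a call lost with the ACTB covariate (-0.39, adjusted p = 0.0936). It differed by 0.22 ± 0.09 between inhibitor and MTAP-positive cells (adjusted p = 0.146) and by -0.22 ± 0.09 between inhibitor and MTAP-negative cells (adjusted p = 0.0920). Its probe sets carry the suffix _x_at, which marks probes that can match other sequences, and the pseudogenes NSUN5P1 and NSUN5P2 are close copies, so the signal of NSUN5 is uncertain.

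EMG1 methylates a pseudouridine of the small rRNA. It read 10.61, 10.36 and 10.36 with inhibitor, 10.89, 10.46 and 10.56 in MTAP-positive cells, and 10.99, 10.95 and 11.06 in MTAP-negative cells. All MTAP-negative arrays lay above the others. EMG1 differed by -0.56 ± 0.13 between inhibitor and MTAP-negative cells (adjusted p = 0.00723). In MTAP-positive against MTAP-negative cells it differed by -0.36 ± 0.13 (adjusted p = 0.0724), and passed with the replicate block (0.0335), without MTAP-positive replicate 1 (0.0242) and with arrays centred (0.0397) or quantile normalised again (0.0498). Fibrillarin (FBL), the ribose methyltransferase of box C/D particles, read 11.80, 11.74 and 11.79 with inhibitor, 11.60, 11.15 and 11.50 in MTAP-positive cells and 11.69, 11.61 and 11.57 in MTAP-negative cells. The inhibitor arrays lay above all others. The difference from MTAP-positive cells was 0.36 ± 0.12 (adjusted p = 0.0785, and 0.0460 with the replicate block). BUD23, which methylates a guanosine of the small rRNA, had the largest difference among rRNA genes that passed nowhere when inhibitor and MTAP-negative cells were compared, at 0.30 ± 0.11 (adjusted p = 0.0606). BUD23 passed without MTAP-negative replicate 1 (0.0402). FTSJ3 and DIMT1 passed nowhere.

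Of the 4 m6A writer genes with values, 1 was called, in 1 comparison, and the 2 erasers and 3 cap enzymes had no call. The writer call, with inhibitor against MTAP-negative cells, is 25% of the 4, against 35% of all genes called there. Of all genes, 18.5% were called in MTAP-positive against MTAP-negative cells and 13.4% with inhibitor against MTAP-positive cells. WTAP read 9.88, 9.65 and 9.53 with inhibitor, 10.06, 10.04 and 10.14 in MTAP-positive cells, and 10.61, 10.28 and 10.19 in MTAP-negative cells. The 3 groups lay apart from each other. WTAP differed by -0.67 ± 0.13 between inhibitor and MTAP-negative cells (adjusted p = 0.00316) and by -0.40 ± 0.13 between inhibitor and MTAP-positive cells (adjusted p = 0.0745, and 0.0371 with the replicate block). In MTAP-positive against MTAP-negative cells it differed by -0.28 ± 0.13 (adjusted p = 0.167). With the mean of its 4 probe sets the difference between inhibitor and MTAP-negative cells was -0.24 (adjusted p = 0.201). Its other probe sets, tested over all probe sets, were unlike each other there. Only 210285_x_at passed (-0.49 ± 0.17, adjusted p = 0.0497), while 229630_s_at had -0.07 ± 0.10 (0.597) and 227621_at had 0.27 ± 0.35 (0.590).

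METTL14, the partner that binds RNA beside METTL3, read 7.74, 8.51 and 8.27 with inhibitor, 7.29, 8.79 and 7.72 in MTAP-positive cells, and 7.54, 7.42 and 7.50 in MTAP-negative cells. The inhibitor arrays lay above the MTAP-negative ones, while the MTAP-positive arrays spread around both. METTL14 differed by 0.68 ± 0.32 between inhibitor and MTAP-negative cells (adjusted p = 0.120). It passed when only these groups were fitted (0.0130), which leaves out the wide spread of MTAP-positive cells. The other METTL14 probe set had an SD of 0.19 in MTAP-positive cells, against 0.77 for the brighter one. Tested over all probe sets, it had 0.31 ± 0.12 between inhibitor and MTAP-negative cells (adjusted p = 0.0692). It had 0.27 ± 0.12 between inhibitor and MTAP-positive cells (0.174) and 0.04 ± 0.12 in MTAP-positive against MTAP-negative cells (0.839). METTL3, the catalytic subunit, read 10.95, 11.06 and 10.92 with inhibitor, 11.03, 10.97 and 10.97 in MTAP-positive cells and 10.82, 11.17 and 11.13 in MTAP-negative cells by its brightest probe set. All groups overlapped. METTL5, which makes m6A in the small rRNA, differed by 0.09 or less in each comparison.

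FTO and ALKBH5, the m6A demethylases, and the cap enzymes CMTR1, CMTR2 and TGS1 lay between -0.31 and 0.18 in all comparisons by their brightest probe sets (log2). By these, the largest difference of an eraser was that of ALKBH5 between inhibitor and MTAP-negative cells, -0.26 ± 0.14 (adjusted p = 0.164). It passed without MTAP-negative replicate 3 (-0.39, adjusted p = 0.0439). The other ALKBH5 probe set had the opposite sign there, 0.54 ± 0.22 (adjusted p = 0.0852), and 0.69 ± 0.22 in MTAP-positive against MTAP-negative cells (adjusted p = 0.0571). FTO differed by 0.15 ± 0.10 in MTAP-positive against MTAP-negative cells (adjusted p = 0.332). Among cap enzymes, CMTR2, which methylates the ribose of the next nucleotide after the cap-adjacent one, differed by -0.31 ± 0.18 between inhibitor and MTAP-negative cells (adjusted p = 0.214). TGS1, which hypermethylates the caps of small nuclear RNAs, differed by -0.22 ± 0.10 in MTAP-positive against MTAP-negative cells (adjusted p = 0.161), with no overlap between their arrays. Its other probe set had -0.32 ± 0.21 (adjusted p = 0.331).

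Partners within an enzyme complex did not have to share a call. WDR4, the partner of METTL1, and SNU13, a partner of fibrillarin, lie outside the rule for named genes and were chosen after their values were seen. WDR4 read 9.03, 8.93 and 8.77 with inhibitor, 8.87, 8.3 and 8.99 in MTAP-positive cells, and 8.94, 8.64 and 8.97 in MTAP-negative cells. Its groups overlapped throughout, and between inhibitor and MTAP-negative cells it differed by 0.06 ± 0.17 (adjusted p = 0.816) where METTL1 fell by 1.03. In the box C/D particle, NOP58, a core scaffold protein, had 10.73, 10.62 and 10.85 with inhibitor, 10.84, 11.10 and 10.98 in MTAP-positive cells and 11.52, 11.77 and 11.44 in MTAP-negative cells. All MTAP-negative arrays lay above the others. NOP58 differed by -0.60 ± 0.12 in MTAP-positive against MTAP-negative cells (adjusted p = 0.00740) and by -0.84 ± 0.12 with inhibitor against MTAP-negative cells (adjusted p = 5.61e-04). In the second of these comparisons FBL differed by 0.15 ± 0.12 (adjusted p = 0.349) and SNU13 by -0.16 ± 0.15 (adjusted p = 0.415). TRMT112, the stabilising partner of METTL5, BUD23 and TRMT11, differed by 0.09 or less in each comparison. Whether the differences of partners differ from each other was not tested.

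**Figure D4:**
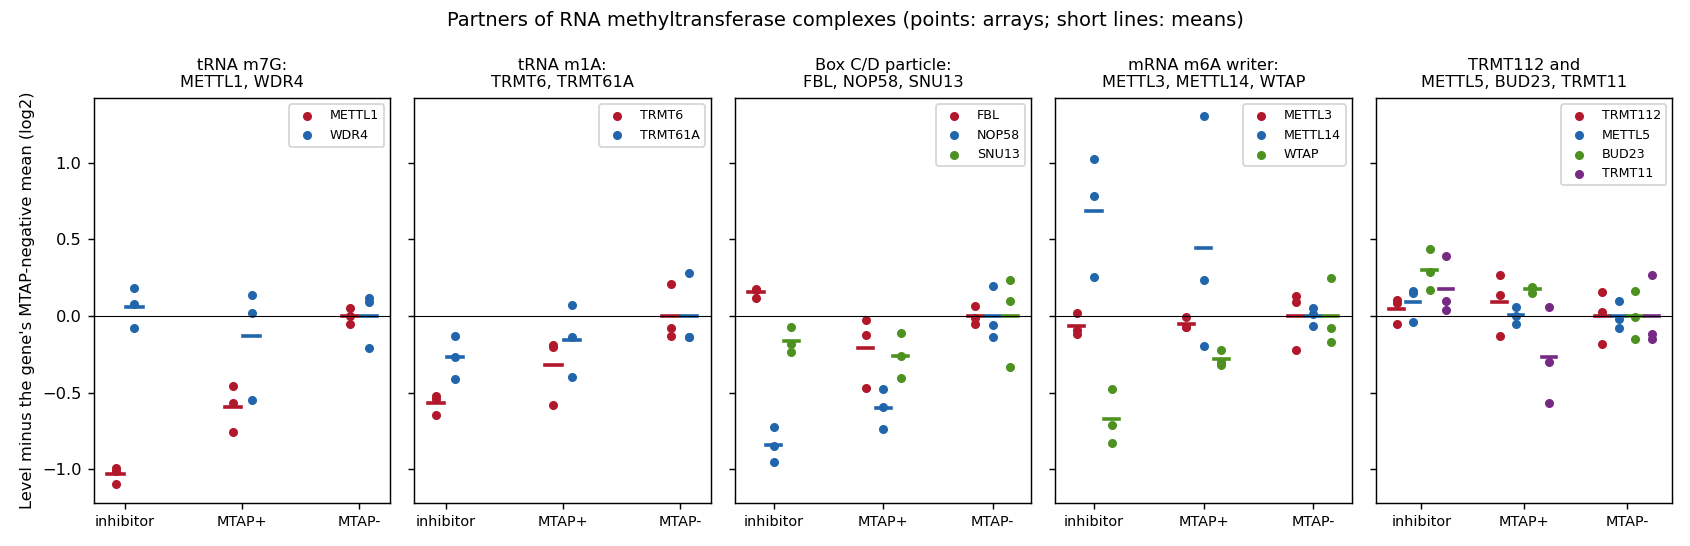
Log2 level of each array minus the gene's own mean in MTAP-negative cells (vertical axis) for partners in 5 complexes; points are arrays and short lines are group means. METTL1 is lower by 1.03 with inhibitor where WDR4 stays near 0, and NOP58 is lower by 0.84 where FBL lies above 0.

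Probe sets of the same gene were compared where a gene had several, which held for 15 of the 33 members. Their tests were run over all 15485 probe sets. Those of TRMT6 and NSUN5 went the same way. TRMT6 had -0.57 and -0.61 between inhibitor and MTAP-negative cells (adjusted p = 0.0130 and 0.0161, the brighter probe set first). In MTAP-positive against MTAP-negative cells the dimmer TRMT6 probe set passed (-0.57 ± 0.16, adjusted p = 0.0378) and the brighter did not (-0.32 ± 0.14, adjusted p = 0.140). NSUN5 had -0.44 and -0.46 between MTAP-positive and MTAP-negative cells (adjusted p = 0.0134 and 0.0172). For TRMT5, the dimmer probe set 227653_at was lower in MTAP-positive than in MTAP-negative cells (-0.45 ± 0.11, adjusted p = 0.0227), and against MTAP-positive cells it was 0.28 with inhibitor, where the brighter one was -0.39. The step of TRMT5 with inhibitor therefore has opposite signs in its probe sets, and neither passed. Against MTAP-negative cells, the dimmer TRMT5 probe set had -0.18 ± 0.11 with inhibitor (adjusted p = 0.244). In MTAP-positive against MTAP-negative cells, TRMT5 had adjusted p = 0.0291 by the mean of its probe sets. The MRM2 probe sets differed in sign in this comparison (-0.28 for the brighter and 0.23 for the dimmer) and neither passed.

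For METTL3, the brightest probe set passed in no comparison, while 213653_at rose with inhibitor: it differed by 0.53 ± 0.13 from MTAP-positive cells (adjusted p = 0.0327) and by 0.65 ± 0.13 from MTAP-negative cells (adjusted p = 0.00500). The remaining METTL3 probe set, 242111_at, had 0.48 ± 0.19 and 0.49 ± 0.19 in the same comparisons and did not pass (adjusted p = 0.148 and 0.0794). For NSUN4, a methyltransferase of mitochondrial rRNA, 230023_at and 226351_at had opposite signs against MTAP-negative cells. Between inhibitor and MTAP-negative cells they had 0.53 ± 0.12 (adjusted p = 0.00757) and -0.27 ± 0.10 (0.0673). In MTAP-positive against MTAP-negative cells they had 0.33 ± 0.12 (0.0799) and -0.47 ± 0.10 (0.0148). With inhibitor against MTAP-positive cells both had 0.20 and did not pass (0.312 and 0.253). The brightest NSUN4 probe set passed in no comparison. Which transcript forms these probe sets read was not tested.

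**Figure D5:**
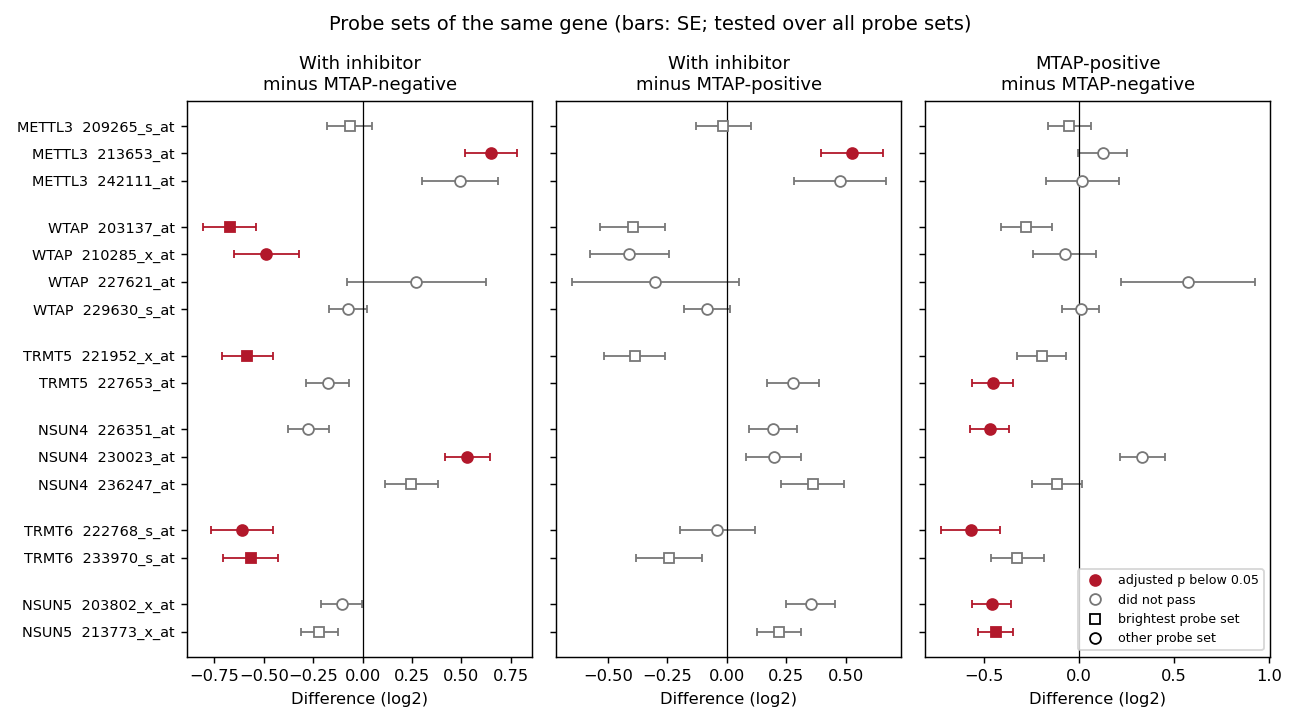
Difference in log2 level (horizontal axis) with the SE for each probe set of 6 genes in the 3 comparisons; squares are the brightest probe set of a gene, circles the others, and filled symbols passed the test over all probe sets. The probe sets of TRMT6 and NSUN5 lie together, while METTL3 has a filled circle at 0.65 and a square near 0 in the left panel.

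Other genes of RNA methylation (m6A writer partners and readers, cap partners, further tRNA and rRNA enzymes, and SAM supply) had values for 49 of 58. Between MTAP-positive and MTAP-negative cells 1 rose and 3 fell. With inhibitor against MTAP-positive cells 2 rose and 3 fell, and with inhibitor against MTAP-negative cells 3 rose and 7 fell. These are 8.16%, 10.2% and 20.4% of the 49, below the shares for all genes given above (18.5%, 13.4% and 35%). TYW3, an enzyme of wybutosine synthesis on phenylalanine tRNA, read 9.14, 9.23 and 9.30 with inhibitor, 8.77, 9.06 and 8.93 in MTAP-positive cells and 9.44, 9.71 and 9.47 in MTAP-negative cells. It was lower in MTAP-positive than in MTAP-negative cells, with a difference of -0.62 ± 0.12 (adjusted p = 0.00509). NOP2, an rRNA cytosine methyltransferase, was lower (-0.34 ± 0.11, adjusted p = 0.0481) and CBLL1, a writer partner, higher (0.35 ± 0.10, adjusted p = 0.0409) in the same comparison. The call for CBLL1 was lost without MTAP-negative replicate 1 (0.0808), 2 (0.0549) or 3 (0.128), or MTAP-positive replicate 1 (0.117) or 2 (0.0597). That for NOP2 was lost without MTAP-negative replicate 1 (0.0511), 2 (0.0938) or 3 (0.151), or MTAP-positive replicate 2 (0.0735) or 3 (0.152). Neither passed with the ACTB covariate (0.269 for each), and CBLL1 did not pass with centred arrays (0.0883) or quantile normalisation (0.125).

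LCMT2, which acts in wybutosine synthesis as does TYW3, had the largest fall of the pathway genes with inhibitor. It read 7.16, 7.09 and 6.69 with inhibitor, 8.35, 7.82 and 7.95 in MTAP-positive cells, and 8.03, 7.80 and 8.13 in MTAP-negative cells. The inhibitor arrays lay below all others, with a difference of -1.06 ± 0.17 from MTAP-positive cells (adjusted p = 0.00411) and -1.01 ± 0.17 from MTAP-negative cells (adjusted p = 0.00120). TFB1M, which dimethylates mitochondrial rRNA, went the other way: it read 9.79, 9.61 and 9.97 with inhibitor, 9.01, 8.66 and 9.01 in MTAP-positive cells and 8.89, 9.0 and 8.95 in MTAP-negative cells. TFB1M rose by 0.90 ± 0.13 against MTAP-positive cells (adjusted p = 0.00271) and by 0.84 ± 0.13 against MTAP-negative cells (adjusted p = 8.07e-04). LCMT2 and TFB1M passed under all alternatives run, which was not so for the next genes. Neither could be tested with only probe sets specific to a gene by name, and the TFB1M probe set carries the suffix _x_at.

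IGF2BP2, an m6A reader that stabilises mRNA, differed by 0.80 ± 0.23 between inhibitor and MTAP-positive cells (adjusted p = 0.0443). That call was lost without MTAP-positive replicate 1 (0.0576) or 2 (0.107), without inhibitor replicate 1 (0.116) or 3 (0.181), and with the ACTB covariate (0.0642). HNRNPA2B1, an RNA-binding protein also described as an m6A reader, differed by -0.46 ± 0.10 in this comparison (adjusted p = 0.0157), but not without inhibitor replicate 3 (0.0816) nor with the mean of its probe sets (0.999), and its probe set specific by name had the opposite sign (0.53, adjusted p = 0.126). TRMT2B, a mitochondrial uridine methyltransferase, read 8.0, 7.80 and 8.20 with inhibitor against 5.70, 5.89 and 7.54 in MTAP-negative cells. With 2 of the MTAP-negative arrays below 6.64, TRMT2B was at least 2.08-fold higher with inhibitor (adjusted p = 0.0199). This call was lost without MTAP-negative replicate 1 (0.0736) or 2 (0.0806) or inhibitor replicate 3 (0.0679). MAT2A, MAT2B and AHCY, which make SAM and clear its product, passed in none of the comparisons.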

How the data were processed

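RNA of 9 HT1080 cultures was hybridised to Affymetrix 1-colour arrays. The deposited log2 values are RMA values, per the submitters' processing notes, which as used here state neither version nor settings. Of 54675 probe sets, 17474 had values, and each of these reached an intensity of 100 (log2 of it, 6.64) on 3 arrays or more. Probe sets were named through the platform annotation (15491 with 1 gene symbol, of which 6 were control probe sets, leaving 15485; 15482 of these matched to RefSeq by Entrez number, 0 symbols changed), 841 with several and 1142 with no symbol being left out. Each of 9453 genes was given by its probe set of highest mean, with no further filter. A linear model with 3 groups was fitted to all 9 arrays with limma 3.58.1 in R 4.3.3 (lmFit, eBayes). Benjamini-Hochberg adjustment ran over all genes, with a threshold of 0.05. MTAP was left out of counts over all genes, which are over 9452. The fit was tested on simulated data for MTAP-positive against MTAP-negative cells. With the other genes unchanged, it called 40% of 100 genes changed by 0.5 and 83% of 100 changed by 1 (log2). The simulated arrays deviated independently and few genes changed, unlike here. These shares check the fit and do not say what part of changed genes the comparisons above found.

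The number of arrays limits the precision: the median SE was 0.128 for the members, and p-values measure the spread between these cultures only. Same-numbered arrays deviated together between MTAP-positive and MTAP-negative cells (correlations of deviations 0.35, 0.23 and 0.13). They did so too between inhibitor and MTAP-positive cells (0.72, 0.56 and 0.30). Between inhibitor and MTAP-negative cells the replicate 1 arrays did (0.29), while replicates 2 and 3 hardly did (0.03 and 0.02). The pairing comes from these correlations, and the labels give only the numbers. Alternatives changed the filter, scaling, probe sets, groups fitted, spread model, pairing, RNA quality and arrays included. The genes named are MTAP, all members that passed, per role and comparison the largest difference of members that passed nowhere, any member whose probe sets disagree in sign past the test (none did), and per comparison the 4 changed pathway genes of largest difference. METTL3, NSUN4, WDR4, SNU13 and the further probe sets of WTAP, METTL14, ALKBH5, TGS1 and MRM2 were chosen after their values were seen. So was the leaving out of TRDMT1 from counts. Members and lists were chosen with earlier results of these data known.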

Additional observations from a re-analysis of the deposited data

How the results depend on the processing

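The 1750 genes called between MTAP-positive and MTAP-negative cells became 1004 with only these groups fitted and 662 with the ACTB covariate, and 1014 to 2063 when 1 array was left out. Of the 32 members other than TRDMT1, 4 were called there. METTL1 and NSUN5 stayed with only these groups fitted, and METTL1 alone with the ACTB covariate. When 1 array was left out, METTL1 and NSUN5 passed each time, and MRM3, TRMT10C or EMG1 only in some cases. Of all genes called there, 63% were higher as reported, 45.5% with centred arrays and 46.6% after renewed quantile normalisation. With the replicate block 2452 genes (25.9%) were called, and EMG1 joined the 4 members. For inhibitor against MTAP-positive cells, 1270 genes became 1919 (20.3%) with the replicate block and 370 to 1203 when 1 array was left out. The member count of 1 became 5 with the block (15.2% of all 33, with TRDMT1 not among the 5). It became 2 with an intensity trend in the spread and 0 to 1 when 1 array was left out. For inhibitor against MTAP-negative cells, 3306 genes became 2321 to 2770 when 1 array was left out. Of the 9 members called there other than TRDMT1, NSUN2 and MRM2 were each lost without some arrays, and the rest passed each time. ALKBH5, BUD23 and TRMT61B each passed without 1 of the arrays. There only the replicate 1 arrays deviated together. The replicate block gave 4027 genes (42.6%), and METTL14, TRMT61A and TRMT61B joined the 9 members. Without TRDMT1, a count chosen after seeing the data, 4, 1 and 9 members were called in the 3 comparisons. The cause of these shifts was not tested. With only probe sets specific to a gene by name, the HNRNPA2B1 difference between inhibitor and MTAP-positive cells turned to 0.53, and METTL3 turned to 0.53 against MTAP-positive and 0.65 against MTAP-negative cells (0.36 by the mean of its probe sets). METTL1, which has none, could not be tested there.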
